A study of Homo sapiens with 30 samples.

Results

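The hepatocyte identity transcription factors are 8 of the 60107 genes in the count table: HNF4A, FOXA1, FOXA2, FOXA3, CEBPA, ONECUT1, NR1H4 and NR5A2. They were picked by symbol as transcription factors that define the hepatocyte, and all 8 symbols matched 1 row each. Their mRNA was measured in HepG2, a human liver tumour line that the labels call hepatocellular carcinoma and the study's text hepatoblastoma, so all groups come from a single cell line in culture. The 30 libraries form 10 groups of 3 biological replicates, made from 5 transfections that were each given the vehicle dimethyl sulfoxide (DMSO) or Sorafenib at 10 µM, a multikinase inhibitor used in advanced liver cancer. Treatment began 24 h after transfection. Cells that received the inhibitor of miR-200c-3p (I200c) or its transfection control (IC) were lysed after 6 h of treatment, whereas cells that received the mimic of miR-222-5p (M222), the mimic of miR-512-3p (M512) or their shared control (MC) were lysed after 24 h. Treatment time therefore cannot be told apart from the kind of oligonucleotide. The 3′ mRNA libraries do not read mature miRNAs, so the transfections themselves were not checked here.

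Hepatocyte identity is kept by a small circle of transcription factors that bind one another's promoters as well as those of plasma protein, lipid and bile acid genes. HNF4A is a nuclear receptor at the centre of that circle. FOXA1, FOXA2 and FOXA3 are forkhead pioneer factors that open liver enhancers, CEBPA is a basic leucine zipper factor of the differentiated hepatocyte, and ONECUT1 (HNF6) is a cut homeodomain factor of liver and bile duct development. NR1H4 (FXR) is the bile acid receptor, and NR5A2 (LRH-1) acts beside it on bile acid synthesis genes.

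The library totals ranged from 3938764 to 9657063 counts, with a median of 6460786. The genes lie, in GRCh38 (GENCODE v44), at chr20:44355699-44432845 (HNF4A), chr14:37589552-37596059 (FOXA1), chr20:22580998-22585455 (FOXA2), chr19:45863989-45873797 (FOXA3), chr19:33299934-33302534 (CEBPA), chr15:52755053-52791078 (ONECUT1), chr12:100473708-100564414 (NR1H4) and chr1:200027614-200177420 (NR5A2). At the depths of these libraries 3 counts correspond to between 0.311 and 0.762 counts per 1000000 counts (CPM). The cells kept their hepatic label: all 8 hepatocyte markers were counted in 30 of 30 libraries, with ALB between 2353 and 5135 CPM. AFP, a fetal liver and liver tumour marker, lay between 679 and 3207 CPM. Of the markers of other cell types, KRT19 of bile duct stood at 230 to 555 CPM and COL1A1 of fibroblasts at up to 11.7 CPM. KRT7, also of bile duct, had a count in 12 libraries, at up to 1.39 CPM. PECAM1 of endothelium had a count in 17 libraries, at up to 3.045 CPM. VWF, COL1A2 and DCN had no count, and PTPRC had a count in 1 library.

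The 3 miRNAs that were inhibited or mimicked are shown first, because the seed of a miRNA, bases 2 to 8, largely sets which 3′ untranslated regions (UTRs) it can pair with. The mature sequences were taken from RefSeq (GRCh38.p14), with the seed in capitals and 3 different seeds among the 3 miRNAs.
hsa-miR-200c-3p: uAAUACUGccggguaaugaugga
hsa-miR-222-5p: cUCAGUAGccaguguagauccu
hsa-miR-512-3p: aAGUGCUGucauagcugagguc
The reverse complement of each seed was searched in the 3′ UTR of the canonical GENCODE transcript (GRCh38) of every coding gene. The 7-base site of miR-200c-3p was present in 16.1% of 19550 UTRs, that of miR-222-5p in 9.21% and that of miR-512-3p in 19.6%. NR5A2 was the 1 member with sites for miR-200c-3p, of which it held 2, and none of the 8 factors held the miR-512-3p site. The UTR of NR5A2 is shown around its sites, with the site in capitals, because they match the cell's own miRNA that the I200c inhibitor is directed against.
NR5A2, chr1:200175481-200175509, plus strand: atgactattatCAGTATTattaacatgcg
NR5A2, chr1:200177367-200177395, plus strand: attttttttttCAGTATTtcaataaatat
A match describes the letters and is not evidence of binding.

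HNF4A had the highest mean of the 8 factors over the 30 libraries, 175 CPM, with a range of 81.3 to 294 CPM, although the mean of FOXA2 was above it in the Sorafenib groups of I200c, MC, M222 and M512. FOXA2 followed with 154 CPM (88.2 to 283 CPM) and CEBPA with 134 CPM (66.7 to 246 CPM). FOXA1 averaged 38.4 CPM, NR1H4 31.5 CPM and FOXA3 27.1 CPM, while ONECUT1 averaged 6.63 CPM and NR5A2 0.434 CPM. Because the kit primes at the poly(A) tail and yields 1 fragment per transcript, CPM was not divided by transcript length, and levels of different genes are compared on that scale.

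The order held only in steps. HNF4A exceeded FOXA2 in 18 of 30 libraries and FOXA2 exceeded CEBPA in 18 of 30, but both orders went with treatment. HNF4A exceeded FOXA2 in 15 of 15 DMSO libraries and in 3 of 15 Sorafenib libraries. FOXA2 exceeded CEBPA in every Sorafenib library but in only a few of the DMSO libraries. CEBPA exceeded FOXA1 in 30 of 30. FOXA1 exceeded NR1H4 in 19 and NR1H4 exceeded FOXA3 in 16 of 30, so neither order held throughout. FOXA3 exceeded ONECUT1 in 30 of 30 libraries, and ONECUT1 exceeded NR5A2 in 29 of 30. Set among all detected genes, the level of HNF4A was above that of 96.7% of them, FOXA2 above 96.0% and ONECUT1 above 63.8%.

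NR5A2 was barely read. It had 87 counts in all, at least 1 count in 15 of 30 libraries and at most 21 counts in one. The 3 Sorafenib-treated I200c libraries had 0 counts, which allows a level of up to 3 counts in each. Because both sides of every comparison were at or near this limit, no fold change is given for NR5A2, although it passed the filter on low counts at 24 h.

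**Figure D1:**
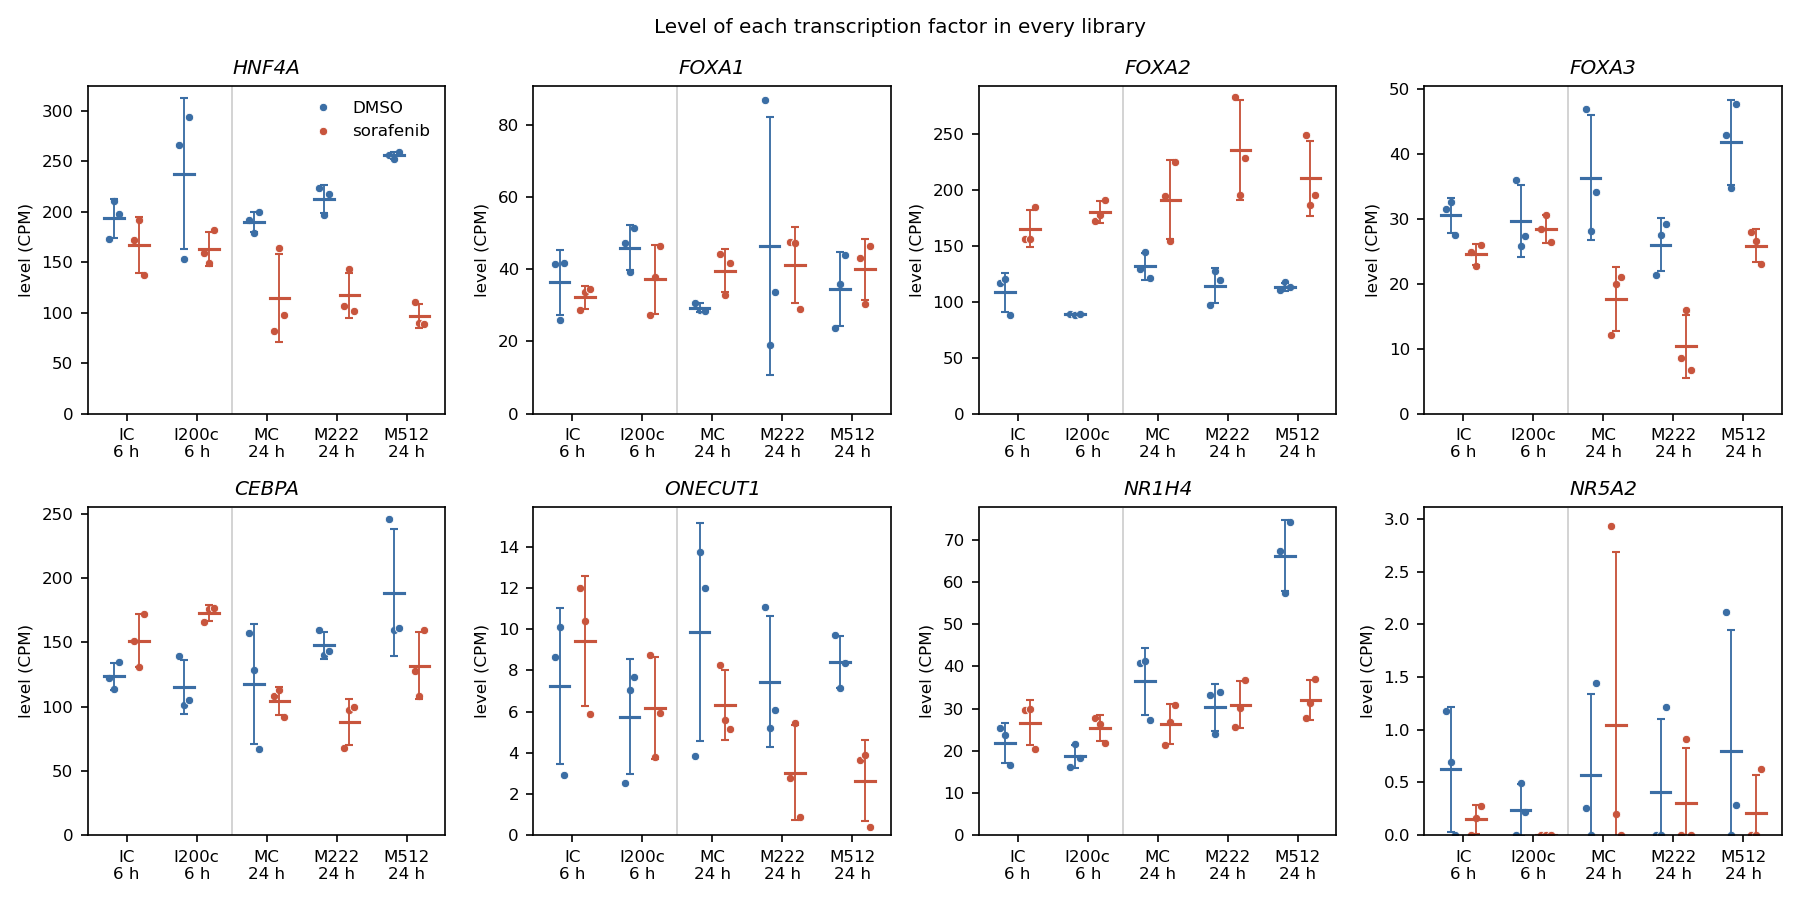
Level (CPM, linear axis from 0) of each of the 8 factors in the 30 libraries, by transfection and time; points are libraries, horizontal lines are means and whiskers are 1 SD (n = 3), blue for DMSO and red for Sorafenib. FOXA2 is higher with Sorafenib in all 5 transfections, and HNF4A is lower without overlap in the 3 transfections of 24 h.

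The first question was whether Sorafenib changed the factors within each transfection. FOXA2 was the member with the most regular response: every Sorafenib library lay above every DMSO library of its own transfection. In the IC transfection, FOXA2 stood at 88.2, 116 and 120 CPM with DMSO and at 156, 156 and 184 CPM with Sorafenib. In the I200c transfection it went from 88.3, 88.9 and 89.1 CPM to 172, 178 and 191 CPM. The 3 DMSO libraries were nearly alike and the treated ones were about 2.02 times higher.

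At 24 h the same gene stood at 121, 129 and 145 CPM with DMSO and at 154, 195 and 225 CPM with Sorafenib in MC. In M222 it stood at 96.7, 119 and 127 CPM and at 195, 229 and 283 CPM. In M512 it stood at 110, 113 and 117 CPM and at 187, 196 and 249 CPM. The DMSO and Sorafenib groups did not overlap in any of the 3. The log2 fold change of FOXA2 was 0.61 ± 0.15 (SE) in IC, 1.01 ± 0.15 in I200c, 0.55 ± 0.20 in MC, 1.04 ± 0.20 in M222 and 0.89 ± 0.20 in M512. By edgeR's quasi-likelihood test with Benjamini-Hochberg adjustment over all genes, FOXA2 rose in I200c (adjusted p = 0.000605), M222 (adjusted p = 0.00306) and M512 (adjusted p = 0.0042). The adjusted p was 0.214 in IC, where DESeq2 called FOXA2 (adjusted p = 0.014), and 0.134 in MC.

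FOXA3 behaved otherwise. It stood at 27.5 to 32.6 CPM with DMSO and 22.7 to 25.9 CPM with Sorafenib in IC, and its groups overlapped in I200c. At 24 h, MC went from 28.0, 34.2 and 46.8 CPM to 12.01, 19.9 and 21.0 CPM. M222 went from 21.3, 27.5 and 29.1 CPM to 6.67, 8.50 and 15.9 CPM, and M512 from 34.7, 42.9 and 47.6 CPM to 23.0, 26.5 and 27.9 CPM. The treated libraries were below the DMSO libraries in all 3 transfections, and the 2 lowest values of FOXA3 in the series were in treated M222. The fall passed the test in M222 (log2 fold change -1.35 ± 0.32, edgeR adjusted p = 0.0146), and the values were -1.05 ± 0.31 in MC (adjusted p = 0.0665, and 0.0193 by DESeq2) and -0.69 ± 0.30 in M512 (adjusted p = 0.157). The M222 call was lost without DMSO replicate 3 (adjusted p = 0.0829), Sorafenib replicate 1 (adjusted p = 0.105) or Sorafenib replicate 3 (adjusted p = 0.125).

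FOXA1 passed the test in none of the 5 transfections, with log2 fold changes between -0.32 in I200c and 0.44 in MC. Its DMSO libraries of M222 were spread widely, at 19.0, 33.7 and 87.1 CPM. Without the highest of them the log2 fold change in M222 turned from -0.20 to 0.65 (edgeR adjusted p = 0.317). FOXA1 overlaps TTC6 on the opposite strand, a gene with 1166 counts in all against 7879 for FOXA1, and whether the counting used strand is not given in the sources used here.

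The shares of the 3 forkhead genes within a library need no scaling between libraries. FOXA2 made up 47.1 to 73.2% of the FOXA1, FOXA2 and FOXA3 counts in the 15 DMSO libraries and 72.2 to 86.5% in the 15 Sorafenib libraries. FOXA3 made up 10.4 to 24.3% with DMSO and 2.51 to 12.5% with Sorafenib. In M222, the mean share of FOXA3 was 14.1% ± 3.2 (SD, n = 3) with DMSO and 3.73% ± 2.1 with Sorafenib. These shares are given as a description, without a test, and rest on 647 to 2674 forkhead counts per library.

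HNF4A, whose loss takes most of the hepatocyte programme with it, had the opposite sign to FOXA2 in every transfection. In M512 it stood at 253, 256 and 259 CPM with DMSO and at 88.9, 90.2 and 111 CPM with Sorafenib, a 2.64-fold difference between tightly grouped replicates. In M222 it stood at 197, 217 and 223 CPM and at 102, 107 and 143 CPM. In MC it stood at 179, 192 and 199 CPM and at 81.3, 97.8 and 164 CPM, with 1 treated library close to the controls. The groups did not overlap in these 3 transfections.

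HNF4A fell in M512 (log2 fold change -1.40 ± 0.22, edgeR adjusted p = 0.000145) and in M222 (-0.87 ± 0.22, adjusted p = 0.0202). In MC the value was -0.73 ± 0.22 with an adjusted p of 0.0681, and it was called by DESeq2 (adjusted p = 0.0146) and by edgeR with total counts, without a filter or with the replicate block (adjusted p of 0.0496, 0.0399 and 0.0458). Without Sorafenib replicate 2 of MC, the treated library near the controls, it was -1.06 (adjusted p = 0.00363). Without Sorafenib replicate 1 of MC it was -0.52 (adjusted p = 0.323), and 1 of the 6 fits that left out 1 library called it. The M222 call was lost without DMSO replicate 1 or 3 or Sorafenib replicate 1 or 3, with adjusted p between 0.0695 and 0.14. At 6 h the groups overlapped in both transfections: HNF4A stood at 173, 197 and 211 CPM with DMSO and 137, 172 and 191 CPM with Sorafenib in IC, and at 153, 266 and 294 CPM against 149, 159 and 182 CPM in I200c. The log2 fold changes were -0.22 ± 0.20 (adjusted p = 0.999) and -0.55 ± 0.20 (adjusted p = 0.162).

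The ratio of the pair also needs no scaling between libraries. FOXA2 had 0.302 to 0.809 counts per HNF4A count in the 15 DMSO libraries, with a median of 0.547. In the 15 Sorafenib libraries it had 0.813 to 2.65 counts per HNF4A count, with a median of 1.36, so no treated library reached down to a DMSO library. In M512 the 3 ratios were 0.43, 0.436 and 0.465 with DMSO and 2.07, 2.2 and 2.25 with Sorafenib. The ratio was chosen after both genes had been seen and is given without a test.

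**Figure D2:**
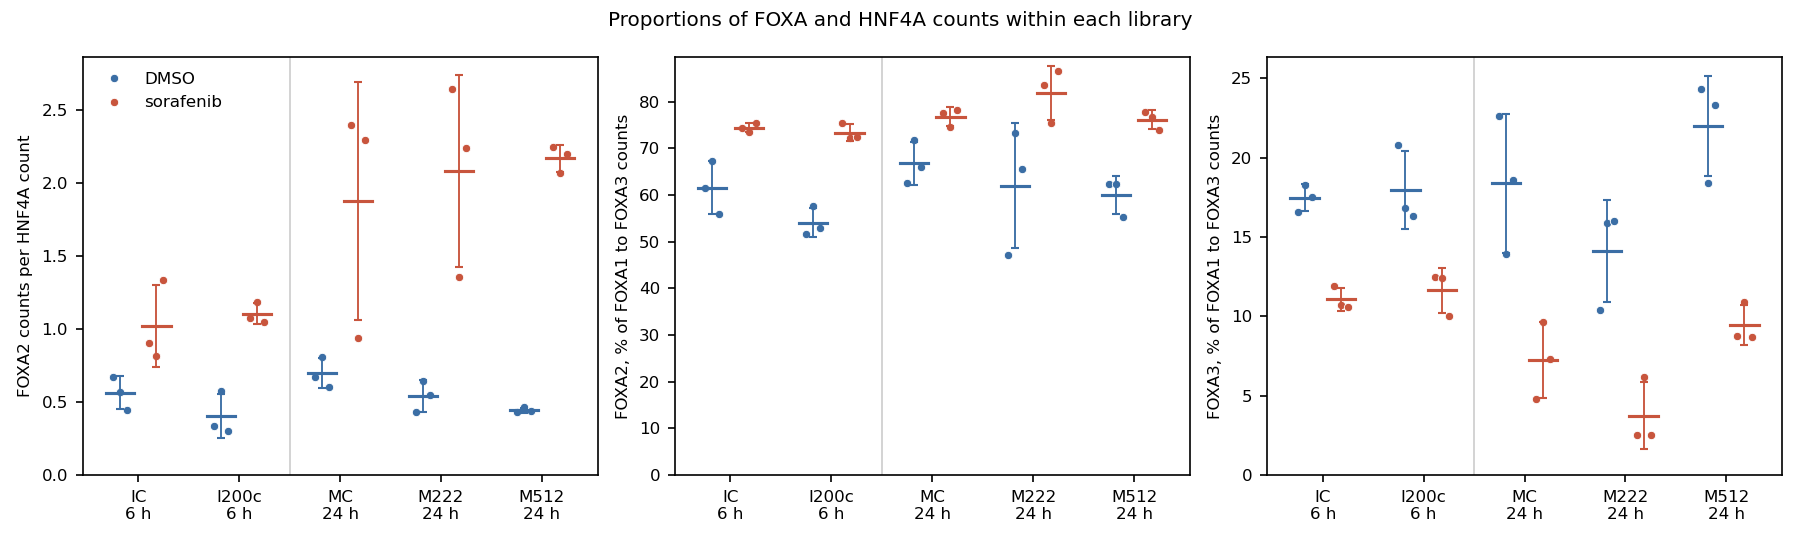
Counts of FOXA2 per count of HNF4A (left), and the share of FOXA2 (middle) and of FOXA3 (right) among the FOXA1, FOXA2 and FOXA3 counts in %, by transfection and time; points are libraries, lines are means and whiskers are 1 SD (n = 3). DMSO libraries reach at most 0.809 FOXA2 counts per HNF4A count, and Sorafenib libraries start at 0.813.

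CEBPA did not pass the edgeR test of the main fits in any single transfection. In I200c it stood at 101, 105 and 139 CPM with DMSO and at 166, 176 and 176 CPM with Sorafenib, without overlap (log2 fold change 0.58 ± 0.15, adjusted p = 0.0531). In M222 the treated libraries were the lower ones, with 140, 143 and 160 CPM against 67.7, 97.4 and 99.5 CPM (log2 fold change -0.75 ± 0.25, adjusted p = 0.0899). Both differences were called by DESeq2, with adjusted p of 0.0129 and 0.0416, and by edgeR without a filter (0.0261 and 0.0315). With the replicate block edgeR called only the one in I200c (0.0444), and with the other scalings neither. Of the 6 fits that left out 1 library, 1 called CEBPA in I200c and 0 in M222. In IC, MC and M512 the groups of CEBPA overlapped.

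NR1H4 had its highest levels in the DMSO libraries of M512. It stood there at 57.4, 67.3 and 74.2 CPM, and at 16.1 to 41.3 CPM in the other 12 DMSO libraries. With Sorafenib it stood at 27.7, 31.2 and 37.1 CPM in M512. The fall in M512 passed the test (log2 fold change -1.05 ± 0.24, edgeR adjusted p = 0.00589). In M222 the groups overlapped and the log2 fold change was 0.02 ± 0.24, which turned to -0.10 with scaling to total counts.

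ONECUT1 was read with 3 to 104 counts per library, and its replicates differed widely. In M512 it stood at 7.16, 8.36 and 9.71 CPM with DMSO and at 0.374, 3.66 and 3.902 CPM with Sorafenib, without overlap. Its log2 fold change was -1.69 ± 0.68 there (edgeR adjusted p = 0.121) and -1.34 ± 0.68 in M222 (adjusted p = 0.286). A difference of that size did not pass the test in a single transfection, and whether low counts or the spread limits the test was not tested.

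Counted over the members, edgeR called 0 of 7 tested in IC, where 0.0393% of all genes tested were called, and 1 of 7 in I200c, where 2.28% were. It called 0 of 8 in MC (2.60% of all genes), 3 of 8 in M222 (4.38%) and 3 of 8 in M512 (9.96%). At an unadjusted p under 0.05 there was 1 member in IC, against 3.78% of all genes, and there were 3 in MC, against 16.9%. DESeq2 called 1 member in IC and 2 in MC. The DMSO and Sorafenib libraries are bulk samples, so fewer cells that express a factor and less of its RNA per cell cannot be told apart.

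To use all replicates of one time, the Sorafenib effect was averaged over the 2 transfections of 6 h and over the 3 transfections of 24 h, a contrast added after the data had been seen. At 6 h, 2 of 7 members were called, against 2.89% of all genes tested: FOXA2 rose (log2 fold change 0.81 ± 0.10, edgeR adjusted p = 0.000104) and CEBPA rose (0.43 ± 0.11, adjusted p = 0.0335). The CEBPA call remained in 3 of the 12 fits that left out 1 library and was lost with scaling to total counts (adjusted p = 0.0605). At 24 h, 6 of 8 members were called, against 25.8% of all genes tested. HNF4A fell by 1.00 on the log2 scale (SE 0.13, adjusted p = 2.4e-06), FOXA3 fell by 1.03 (SE 0.18, adjusted p = 0.000149) and ONECUT1 fell by 1.22 (SE 0.39, adjusted p = 0.0221). NR1H4 fell by 0.50 (SE 0.14, adjusted p = 0.00985) and CEBPA fell by 0.48 (SE 0.15, adjusted p = 0.0167), while FOXA2 rose by 0.83 (SE 0.11, adjusted p = 8.41e-06). FOXA1 had a log2 fold change of 0.15 with a 95% interval of -0.28 to 0.59. The 24 h calls of CEBPA and ONECUT1 remained in 15 and 16 of the 18 fits that left out 1 library: CEBPA was lost without M222 Sorafenib replicate 1, MC DMSO replicate 1 or MC Sorafenib replicate 3, and ONECUT1 without M222 Sorafenib replicate 3 or MC DMSO replicate 2.

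The difference between the 2 averages was then tested in a single edgeR fit of all 30 libraries. In this test, 4 of 8 members were called, against 9.40% of all genes tested, all of them with a more negative effect at 24 h. CEBPA differed by -0.91 ± 0.20 (adjusted p = 0.00285), NR1H4 by -0.85 ± 0.21 (adjusted p = 0.00853), FOXA3 by -0.83 ± 0.24 (adjusted p = 0.022) and HNF4A by -0.61 ± 0.19 (adjusted p = 0.0405). The CEBPA effect was positive at 6 h and negative at 24 h. FOXA2 differed by 0.02, with a 95% interval of -0.30 to 0.34, and the size of its rise at the 2 times was not separated. The call of HNF4A was kept in 17 of the 30 fits that left out 1 library, while those of CEBPA, NR1H4 and FOXA3 were kept in all 30. In the control transfections alone, the interaction of time with Sorafenib called 0 of 7 members by edgeR and by DESeq2, against 0.216% of all genes tested. At an unadjusted p under 0.05 there were 2 members, against 13.7% of all genes. Time, oligonucleotide and experiment cannot be told apart in either test.

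**Figure D3:**
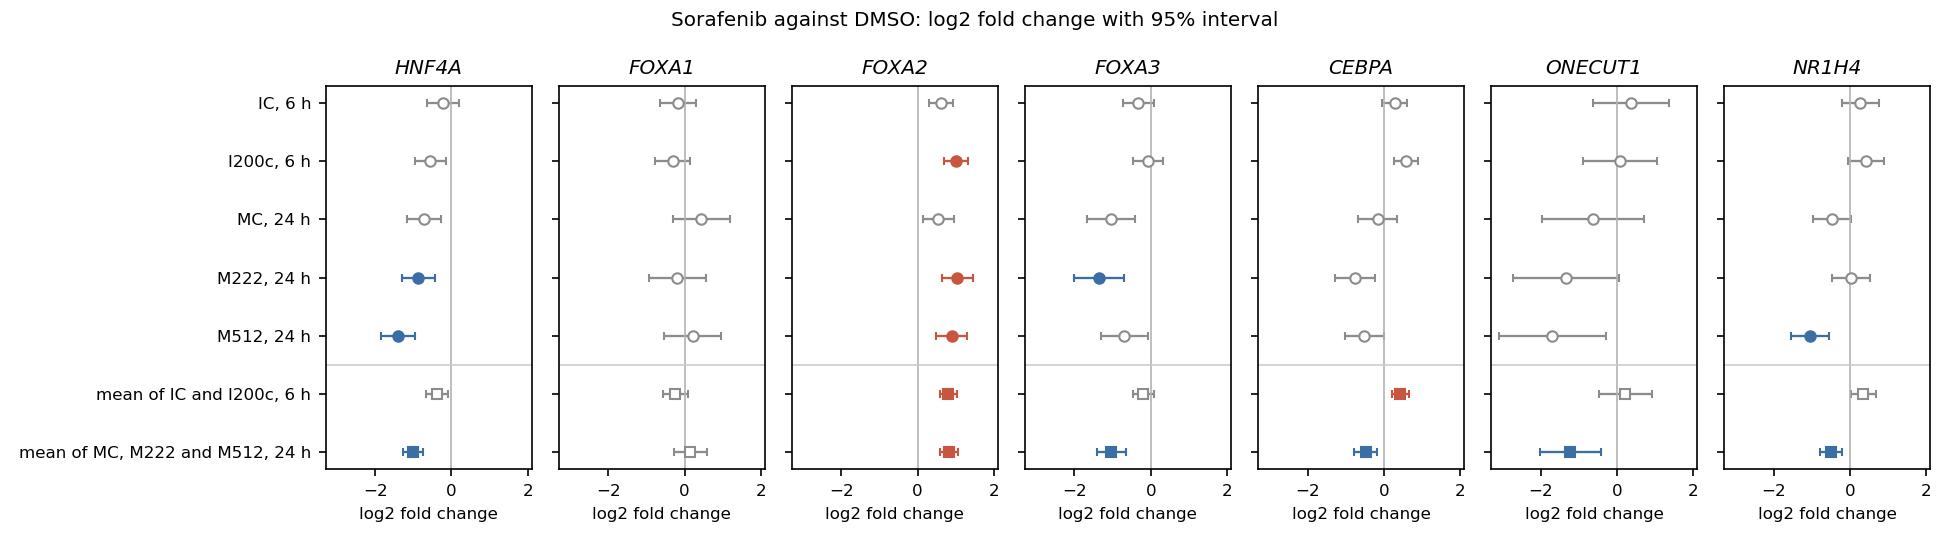
Log2 fold change of 7 factors, Sorafenib against DMSO, with the 95% interval (horizontal bars), for the 5 transfections (circles) and for the averages over the transfections of 6 h and of 24 h (squares); filled symbols passed the edgeR test, red for higher and blue for lower. FOXA2 is right of 0 in all 7 rows, and HNF4A is left of 0 in all 7.

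The second question was whether the miRNA inhibitor or mimics changed the factors. No member passed the edgeR test for I200c against IC with DMSO (0 of 7, against 0.0157% of all genes) or with Sorafenib (0 of 7, against 0%), nor for M222 against MC with DMSO or with Sorafenib (0 of 8 each, against 0% in both). For M512 against MC the counts were 0 of 8 with DMSO, against 0.634%, and 0 of 8 with Sorafenib, against 0.355%. Nor was the Sorafenib effect of a member called different from that of the control transfection for I200c (0 of 7, against 0%), M222 (0 of 8, against 0%) or M512 (0 of 8, against 0.00755%). At an unadjusted p under 0.05 there was 1 member for M222 against MC with Sorafenib, against 6.04% of all genes. There were 2 for M512 against MC with DMSO (10.5% of all genes) and 1 for the M512 interaction (5.04%). The other 6 comparisons had 0, against 1.96 to 11.1% of all genes. DESeq2 called 1 member in these 9 comparisons.

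That member was NR1H4 in M512. With DMSO it stood at 57.4 to 74.2 CPM in M512 and at 27.4 to 41.3 CPM in MC, without overlap. The log2 fold change was 0.85 ± 0.24, with an adjusted p of 0.122 by edgeR and 0.0358 by DESeq2. CEBPA was the second, at 159 to 246 CPM in M512 and 66.7 to 158 CPM in MC (log2 fold change 0.67 ± 0.25, edgeR adjusted p = 0.288).

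The 1 member with an unadjusted p under 0.05 for M222 against MC was FOXA3 with Sorafenib, at -0.80 (95% interval -1.45 to -0.14, edgeR adjusted p = 0.746). NR5A2 had 6 counts in the 3 DMSO libraries of I200c and 9 counts in those of IC, too few to compare. HNF4A had a Sorafenib effect in M512 that differed from that in MC by -0.67 ± 0.30 on the log2 scale (unadjusted p = 0.0358, edgeR adjusted p = 0.965). Over the 12 fits that left out 1 library it ran from -0.85 without Sorafenib replicate 1 of MC to -0.31 without Sorafenib replicate 2 of MC.

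Without treatment, the control transfections gave 0 of 7 members called for MC at 24 h against IC at 6 h by edgeR and by DESeq2, where 0.528% of all genes were called. At an unadjusted p under 0.05 there was 1 member, against 15.8% of all genes. That member was NR1H4, at 16.6 to 25.3 CPM in IC and 27.4 to 41.3 CPM in MC (log2 fold change 0.77 ± 0.24, adjusted p = 0.143).

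The RefSeq table (GRCh38.p14) held a window around the transcription start, most of it upstream, for 7 of the 8 factors. Motifs of 6 liver factors and the TATA box TATAAA were searched on both strands: TGTTTAC for FOXA, CAAAGTCCA for HNF4A, GTTAAT for HNF1, TTGCNNCAA for CEBP, TATTGAT for ONECUT and CAAGGTCA for NR5A2. The windows of HNF4A, FOXA3 and NR1H4 are printed, with matches in capitals, because these 3 of the 5 members that fell in the 24 h average were also called in at least 1 transfection. HNF4A has an upstream start and a downstream start, known as P2 and P1, whose transcripts share their 3′ part, so the counts do not tell them apart.
HNF4A upstream, chr20:44355449-44355748, plus strand: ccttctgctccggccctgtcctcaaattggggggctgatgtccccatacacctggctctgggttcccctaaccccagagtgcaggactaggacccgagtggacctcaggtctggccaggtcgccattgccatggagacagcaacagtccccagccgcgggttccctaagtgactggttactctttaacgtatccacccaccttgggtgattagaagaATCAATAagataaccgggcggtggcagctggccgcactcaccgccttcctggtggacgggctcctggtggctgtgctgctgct
HNF4A downstream, chr20:44400989-44401288, plus strand: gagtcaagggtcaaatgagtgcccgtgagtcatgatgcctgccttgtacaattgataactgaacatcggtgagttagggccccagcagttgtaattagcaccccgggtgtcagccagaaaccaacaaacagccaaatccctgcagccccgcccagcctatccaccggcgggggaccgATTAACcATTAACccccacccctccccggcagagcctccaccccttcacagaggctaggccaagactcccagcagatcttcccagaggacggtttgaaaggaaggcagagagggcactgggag
FOXA3, chr19:45864076-45864375, plus strand: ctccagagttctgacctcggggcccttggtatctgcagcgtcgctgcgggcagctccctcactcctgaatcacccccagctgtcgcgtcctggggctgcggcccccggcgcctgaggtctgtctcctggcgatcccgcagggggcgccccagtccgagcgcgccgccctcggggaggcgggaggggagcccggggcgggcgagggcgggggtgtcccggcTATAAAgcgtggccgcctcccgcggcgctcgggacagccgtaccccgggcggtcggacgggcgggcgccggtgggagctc
NR1H4, chr12:100503110-100503409, plus strand: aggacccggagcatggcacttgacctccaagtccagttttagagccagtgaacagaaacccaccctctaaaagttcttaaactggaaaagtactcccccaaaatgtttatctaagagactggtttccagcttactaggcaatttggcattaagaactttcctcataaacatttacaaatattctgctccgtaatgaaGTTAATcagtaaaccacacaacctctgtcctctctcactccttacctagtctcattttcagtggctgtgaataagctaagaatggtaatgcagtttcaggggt
The upstream HNF4A window held the ONECUT letters at position -33 from the transcription start, on the minus strand, as 1.71% of all 35116 windows did. The downstream one held the HNF1 letters at -73 and at -66, both on the minus strand, and the NR1H4 window held them at -53 on the plus strand, as 6.88% of windows did. The FOXA3 window held a TATA box at -30, found in 11.5% of windows. Of the other 2 members that fell in that average, CEBPA had a TATA box at -30 as well and ONECUT1 had no match. None of the 4 windows held the FOXA, HNF4A, CEBP or NR5A2 letters, which were present in 3.42%, 0.384%, 1.98% and 1.28% of windows, and this says nothing of binding elsewhere.

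Other genes of the same network were counted in 3 lists, each as a whole. Of 28 further liver transcription factors, 27 were tested. In the averages, 3 rose and 0 fell at 6 h, where 2.89% of all genes tested were called. The list median log2 fold change was 0.06 against 0.01 for all genes tested. At 24 h, 6 rose and 6 fell, where 25.8% of all genes tested were called. The median was -0.18 against -0.04, and with scaling to total counts 5 rose and 10 fell. CEBPB and CEBPG, the stress-responsive relatives of CEBPA, rose by 1.95 ± 0.20 (edgeR adjusted p = 1.34e-07) and 1.89 ± 0.19 (adjusted p = 1.2e-07). In MC, CEBPB went from 20.7 to 48.9 CPM with DMSO to 101 to 204 CPM with Sorafenib. NR3C1, the glucocorticoid receptor, rose by 0.66 ± 0.11 (adjusted p = 0.000134). NR0B2 (SHP), the corepressor that NR1H4 induces, fell by 1.01 (SE 0.14, adjusted p = 1.21e-05). NR0B2 is also in the list of bile acid genes, so its fall is counted in both lists. PROX1 fell by 1.03 (SE 0.16, adjusted p = 5.45e-05) and PPARA, the fatty acid receptor, fell by 1.04 (SE 0.18, adjusted p = 9.81e-05).

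Of 18 genes of bile acid handling or targets of NR1H4 or NR5A2, 11 were tested at 6 h and 14 at 24 h. At 6 h edgeR called 0 in the average, against 2.89% of all genes, with 2 at an unadjusted p under 0.05, against 15.4%. At 24 h, 0 rose and 6 fell, where 25.8% of all genes tested were called. The list median was -0.41 against -0.04 for all genes tested. CYP8B1, the enzyme that sets the share of cholic acid, had 108 counts in the 3 DMSO libraries of M512 and 1 count in the 3 Sorafenib libraries (edgeR adjusted p = 0.0109 in M512). In M222 it had 78 counts and 5 counts. KNG1, kininogen, fell by 1.34 (SE 0.27, adjusted p = 0.000691) and ABCB4, the phospholipid transporter of bile, fell by 1.19 (SE 0.32, adjusted p = 0.00684).

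Of 26 secreted and metabolic targets of HNF4A, FOXA or CEBPA, 24 were tested. In the average of 6 h edgeR called 0, against 2.89% of all genes, with a list median of 0.07. At an unadjusted p under 0.05 there were 2, against 15.4% of all genes. At 24 h, 0 rose and 12 fell, with a median of -0.46 against -0.04 for all genes tested, of which 25.8% were called. MTTP and APOB, which load and form lipoproteins, fell by 0.97 (SE 0.13, adjusted p = 5.89e-06) and by 1.06 (SE 0.15, adjusted p = 1.23e-05). F7, a clotting factor, fell by 1.60 (SE 0.28, adjusted p = 0.000184), and LIPC, hepatic lipase, by 0.95 (SE 0.16, adjusted p = 9.02e-05). ALB, named after its value was seen because it is the main plasma protein, fell by 0.35 (SE 0.11, adjusted p = 0.0158). Some of these genes are also the markers used above to check the cell label, so the hepatocyte markers themselves moved with treatment at 24 h, and the part of that in the members' results was not tested.

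**Figure D4:**
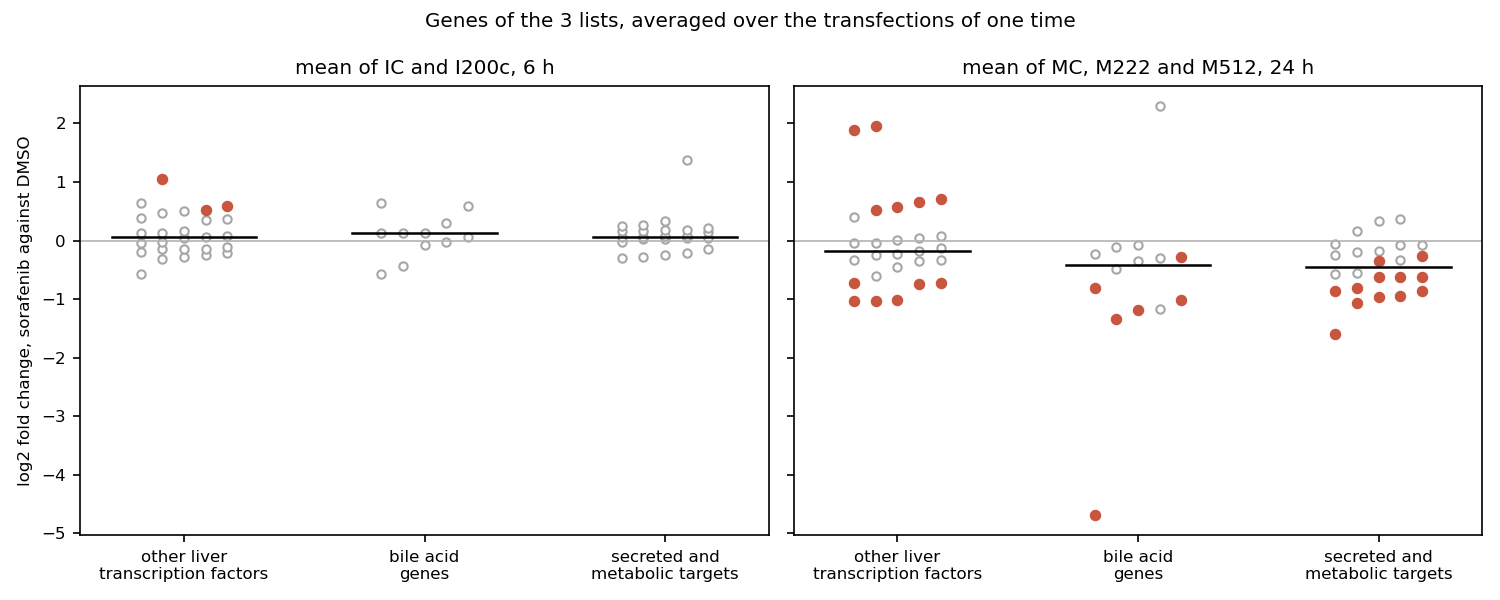
Log2 fold change, Sorafenib against DMSO, of the tested genes of the 3 lists, averaged over the transfections of 6 h (left) and of 24 h (right); filled points passed the edgeR test, open points did not, and black lines are list medians. At 24 h, 0 bile acid genes and 0 secreted or metabolic targets rose, and 6 and 12 fell, where 25.8% of all genes tested were called.

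For each member called in at least 1 transfection, 9740 genes with a mean of at least 5 CPM were ranked by the root mean square difference of their centred log2 group means over the 10 groups, a description without a test. For HNF4A they were ENSG00000267010 (difference 0.0968 on the log2 scale) and MPV17L (difference 0.11 on the log2 scale, where the median over all genes was 0.505). For FOXA2 they were EPC1 (0.133) and RBM18 (0.138), with EPC1 going from a mean of 79.4 CPM with DMSO to 139 CPM with Sorafenib in M512. For FOXA3 they were CAD (0.171) and NFATC2IP (0.185). For NR1H4 they were ACOX2 (0.179), an enzyme of bile acid side chain oxidation, and BHMT2 (0.189).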

How the data were processed

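Total RNA of the 30 libraries was read with the QuantSeq 3′ FWD kit, in which each fragment starts near the poly(A) tail. According to the study's methods and the submitters' processing notes, the authors made the reads with DRAGEN, trimmed them, aligned them to GRCh38 with STAR and counted them per gene with HTSeq. The deposited table holds these raw counts. A second deposited matrix, of counts divided by a size factor per library, was not used. Of 60199 lines, 92 named no gene and held 3 counts in all.

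Counts were tested with edgeR 4.0.16 in R 4.3.3 (quasi-likelihood F test, two-sided, TMM scaling, filterByExpr, 1 coefficient per group, separate fits for 6 h and 24 h) and adjusted by Benjamini-Hochberg over all genes tested, 12738 at 6 h and 13244 at 24 h. A gene is called at an adjusted p under 0.05. The common biological coefficient of variation was 0.241 at 6 h and 0.356 at 24 h. Levels are TMM-scaled CPM, and limits of 3 counts cover counting error only. Alternatives were DESeq2 1.42.0, median-ratio and total-count scaling, no filter, the replicate number as a block and leaving out each library. The 2 averages and their difference were added after seeing the data. Fits were tested on simulated data. Named genes were all 8 members, up to 6 called genes per list by lowest adjusted p, and the 2 most similar genes per called member. The members and lists were chosen with earlier results of these data known. Matches of the members to the miR-222-5p seed are not reported here.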

Additional observations from a re-analysis of the deposited data

Results flagged for a closer look

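The effect of Sorafenib was compared between the times in 2 tests of the difference itself. Both tests use the 12 control libraries, so they are not independent, and the first was added after the data had been seen. The difference of the averages called 4 of 8 members, against 9.40% of all genes tested. The interaction in the control transfections called CEBPB, a gene of the lists, and 0 of 7 members, against 0.216% of all genes tested. In the fit of all 30 libraries, the averaged effect at 24 h minus that at 6 h was -0.907 for CEBPA, -0.847 for NR1H4, -0.831 for FOXA3 and -0.612 for HNF4A on the log2 scale, with edgeR adjusted p of 0.00285, 0.00853, 0.022 and 0.0405. For CEBPB, the effect in MC at 24 h exceeded that in IC at 6 h by 2.01 on the log2 scale (edgeR adjusted p = 0.0411 in the 12 control libraries), a call that was lost with the replicate block. CEBPB stood at 58.5 to 72.5 CPM with DMSO and 56.5 to 82.9 CPM with Sorafenib in IC, and at 20.7 to 48.9 CPM and 101 to 204 CPM in MC. The times come from different transfections, and the cause was not tested.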

How the results depend on the processing

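FOXA2 in I200c, M222, M512 and both averages, HNF4A in M512 and the 24 h average, and NR1H4 in M512 and the 24 h average kept their call under the 5 other fits (DESeq2, both scalings, no filter, replicate block) and in every fit without 1 library. So did FOXA3 in the 24 h average, and CEBPA, NR1H4 and FOXA3 for the difference between the times. Counts of members called moved as follows. With DESeq2 they were 1 in IC, 2 in I200c, 2 in MC and 1 for M512 against MC with DMSO. Without a filter they were 3 in I200c and 2 in MC, and with total counts 2 in MC and 1 in the 6 h average. Leaving out 1 library each gave 1 to 2 in I200c, 0 to 1 in MC, 1 to 3 in M222, 1 to 3 in the 6 h average and 3 to 5 for the difference between the times. With 2 samples left in a group, the spread is pooled over the groups.

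The main fits did not pair the samples by replicate number, and whether the numbers mark pairs was not tested. Libraries of different groups were correlated by their deviations from the group mean of log2 CPM. For same-numbered libraries these correlations ran from -0.175 to 0.386 at 6 h and from -0.214 to 0.318 at 24 h. Not every pair was over 0.1. At 24 h, 19 of 45 same-numbered pairs were over 0.1 (median 0.0672), against 12 of 90 differently numbered pairs (median -0.0349). With the replicate block the members called were 2 in I200c and 1 in MC. The block gave 1 other liver transcription factor in I200c and 6 and 5 secreted and metabolic targets in MC and M222.

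For the other liver transcription factors DESeq2 called 1 in IC, 4 in I200c and 4 in MC. For the secreted and metabolic targets it called 9 in MC and 5 in M222, and total counts gave 6 in MC and 5 in M222. Signs turned for values near 0: NR1H4 in M222 was -0.000199 with DESeq2 and -0.0961 with total counts, and the difference of FOXA2 between the times was -0.0843 with total counts. Without 1 library the log2 fold changes ran from -0.147 to 0.091 for FOXA3 in I200c, -0.268 to 0.345 for ONECUT1 in I200c, -0.457 to 0.122 for CEBPA in MC, -0.531 to 0.648 for FOXA1 in M222, -0.0905 to 0.165 for NR1H4 in M222 and -0.0565 to 0.0704 for FOXA2 between the times. The cause was not tested.

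Total counts moved the median log2 fold change of all genes by -0.11 in MC, -0.10 in M222, -0.19 in M512, -0.12 for M512 against MC with Sorafenib, -0.13 in the 24 h average and -0.11 for the difference between the times. Of all calls, higher ones made up 69.5% with TMM and 50.1% with total counts in MC, 64.3% and 47.9% in M222, 53.6% and 29.9% in M512, 52.1% and 32.8% in the 24 h average, 41.7% and 27.4% for M512 against MC with DMSO, and 56.8% and 38.0% for the difference between the times. NR5A2 had 87 counts in all. ONECUT1 had few counts and a wide spread between replicates, and which of them limits its test was not tested. FOXA3 in MC was called with DESeq2 (adjusted p = 0.0193), total counts (0.0484) and no filter (0.0424).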

Other observations

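With DMSO, edgeR called 3 list genes between the control transfections, where 0.528% of all genes tested were called. An unadjusted p under 0.05 was found for 7 of 27 other liver transcription factors and 10 of 24 secreted and metabolic targets. For all genes tested this share was 15.8%. DESeq2 called 3 and 5 genes of these lists. MC at 24 h stood above IC at 6 h for KNG1, from 1.77 to 3.22 CPM up to 13.5 to 18.4 CPM (log2 fold change 2.65 ± 0.41, edgeR adjusted p = 0.00685), for APOC3, an apolipoprotein of triglyceride-rich particles (1.15 ± 0.25, adjusted p = 0.0494, lost with scaling to total counts), and for PPARA (1.05 ± 0.22, adjusted p = 0.0428). FGB, the fibrinogen beta chain, was lower in M512 than in MC with DMSO (log2 fold change -1.02 ± 0.18, edgeR adjusted p = 0.00559). With Sorafenib, PPARA was lower in M512 than in MC (-1.72 ± 0.32, adjusted p = 0.01). No further list gene was called in the oligonucleotide comparisons by edgeR.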
